A study of Triticum aestivum with 12 samples.

Results

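AAC Starbuck and AAC Magnet are spring bread wheats (Triticum aestivum) released in the same year, of which the first was bred for Western and the second for Eastern Canada. Their flag leaf transcriptomes were compared in 3 AAC Starbuck and 3 AAC Magnet libraries, all labelled Control, out of 12 libraries of 4 varieties. The other 6 libraries are AAC Concord (Western) and AAC Tradition (Eastern), both released a few years earlier, likewise from flag leaf and labelled Control. Each variety is 1 genotype, so a difference between these varieties is not a difference between the Western and the Eastern ecozone. Where the plants grew is not settled, since the study's text names a greenhouse and the sample labels name field plots. Genes entered with a normalized count of at least 10 in at least 3 of the 6 libraries, which kept 41075 of 107411 genes (38.2%). A further 29236 genes were above 0 in at least 1 of the 6 libraries but stayed under this minimum.

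Bread wheat is a hexaploid that carries the A, B and D subgenomes, so most genes exist as homoeologues, related copies on the matching chromosome of each subgenome. The flag leaf is the uppermost leaf and a main source of assimilate for the grain, and it is covered by a cuticular wax. Wax alkanes are made by CER1 enzymes and primary alcohols by fatty acyl-CoA reductases (FAR), while the genes for β-diketones lie together in the W1 locus.

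Normalized totals were 5077330 to 5510417 in the 6 libraries. The estimated depth was 4897588 to 6908747 reads in AAC Starbuck and 4489283 to 5835000 in AAC Magnet. AAC Starbuck libraries held 60489 to 61166 genes above 0 and AAC Magnet libraries 58024 to 59109, so the varieties did not overlap in the number of genes detected, and the part of this in the counts below was not tested. Libraries of the same variety correlated at 0.938 to 0.952 across the genes tested and libraries of different varieties at 0.834 to 0.871, where genes are not independent replicates. No labels tie the 3 libraries of a variety to separate plants, so p-values measure only the spread between these samples. No leaf marker check was made, because the files do not pair the identifiers with gene names.

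Between AAC Starbuck and AAC Magnet, 2503 genes were differentially expressed (DEGs, 6.09% of genes tested), of which 1500 were higher in AAC Starbuck (3.65%) and 1003 were lower (2.44%). A DEG had a Benjamini-Hochberg adjusted p under 0.05 in limma on log2(normalized count + 1) and differed by more than 1 on the log2 scale in either direction. The median log2 fold change was 1.88 among DEGs higher in AAC Starbuck and -1.74 among those lower, against 0.00 over all genes tested. Large differences made up a small part, since 170 DEGs were higher and 133 lower by more than 4 on the log2 scale. Without the limit on the fold change 3458 genes (8.42%) passed, 1926 higher and 1532 lower. The 3 AAC Starbuck libraries did not overlap the 3 AAC Magnet libraries in 2497 of the DEGs, beside 27.0% of all genes tested.

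**Figure D1:**
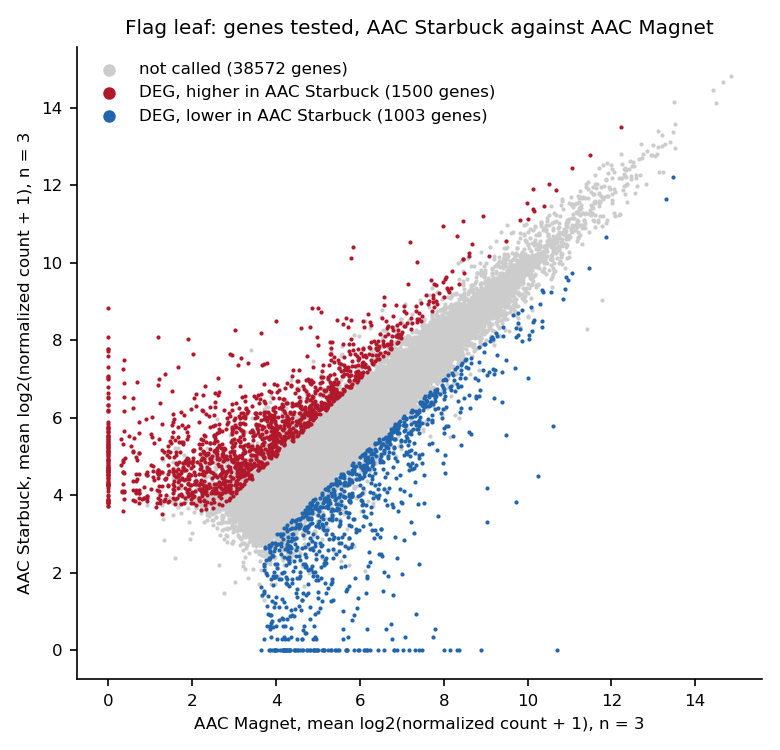
Mean log2(normalized count + 1) of each gene tested in the 3 AAC Magnet libraries (x axis) and the 3 AAC Starbuck libraries (y axis). The 1500 DEGs higher and the 1003 DEGs lower in AAC Starbuck lie on both sides of the diagonal, and groups of points along both axes are genes at or near 0 in 1 variety.

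By number of genes, most of the excess of DEGs higher in AAC Starbuck came from a mean under 50 over the 6 libraries. Of genes with a mean under 20 10.3% were DEGs, 530 higher and 317 lower, and of genes from 20 to 50 6.59% were, 501 higher and 287 lower. From 50 to 200 the share was 4.26%, with 369 higher and 297 lower, and from 200 to 1000 3.63%, with 82 higher and 92 lower. At 1000 or more 28 genes were DEGs, 18 higher and 10 lower. With genes of a mean of at least 50 alone, 502 were higher and 420 lower in a refit. With the genes kept, 54.0% to 62.9% of DEGs were higher when 1 of the 6 libraries was left out. Applied again to the 5 that remained, the filter still asked for 3 libraries. A gene reaching 10 only in the variety that lost a library therefore could not enter. Without AAC Starbuck replicates 1, 2 and 3, 45.0%, 40.5% and 46.5% of DEGs were then higher. Without AAC Magnet replicates 1, 2 and 3, 74.6%, 71.9% and 69.5% were. The direction of this shift is set by the filter, so it does not measure sensitivity to a library.

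The B subgenome held the largest share of DEGs and the D subgenome the smallest. On B 1018 of 13388 genes tested were DEGs (7.60%), on A 779 of 13481 (5.78%) and on D 655 of 13727 (4.77%). Among unplaced genes 51 of 479 were (10.6%). This order of B over A over D was the same in all 27 refits under other settings or without 1 library. Within homoeologous groups, B was highest in 6 of 7, with A highest in group 4, and D was lowest in 6 of 7, with A lowest in group 5. These shares describe genes on 1 pair of varieties and carry no test.

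Chromosome 6B stood first, with 175 of 1721 genes tested called (10.2%), and kept this place in those 27 refits. It was followed by 5B (8.30%), 3B (7.84%), 1B (7.65%) and 6A (7.22%). The lowest shares were on 4D (3.89%), 1D (4.10%) and 5A (4.23%). Direction also differed by chromosome: on 6B 83 DEGs were higher and 92 lower in AAC Starbuck, and on 6A and 2A lower genes were also the majority (59 of 114 and 57 of 111). On the other chromosomes more DEGs were higher, as on 1B with 93 of 135 and on 2B with 96 of 140.

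**Figure D2:**
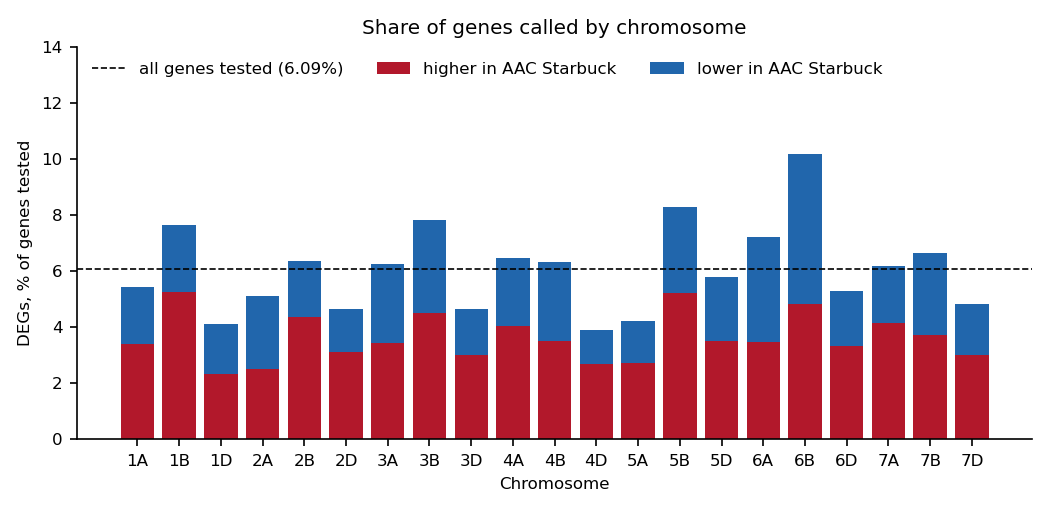
Share of genes tested that were DEGs on each chromosome, in percent, split into genes higher (red) and lower (blue) in AAC Starbuck. The dashed line is the share over all genes tested, 6.09%. Chromosome 6B is the tallest bar at 10.2% and 4D the shortest at 3.89%.

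DEGs were densest towards the ends of the chromosomes. In identifier order, which follows the position on the chromosome, the first 10% of the genes tested held 11.6% DEGs and the last 10% held 11.3%, against 3.25% to 6.60% in the steps of 10% between them. Both ends together had 14.3% DEGs on B, 11.8% on A and 8.20% on D, and the inner part 5.94%, 4.27% and 3.92%. B was thus above A and D in the outer and in the inner part.

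Along the chromosomes, 14 blocks held DEGs in close succession. A block is a run of joined windows of 50 genes tested with at least 30% DEGs each, trimmed to its first and last DEG. The blocks held 348 of the DEGs (13.9%) in 1041 of the genes tested (2.53%), with 203 higher and 145 lower in AAC Starbuck. There were 5 blocks on A, 9 on B and 0 on D. Of the 14, 10 began in the first or ended in the last 10% of a chromosome's genes, while the 7A block, both 5B blocks and the second block of 1B lay further inside. The number of blocks depends on the window, since windows of 25 genes gave 33 blocks and windows of 100 genes gave 5.

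**Figure D3:**
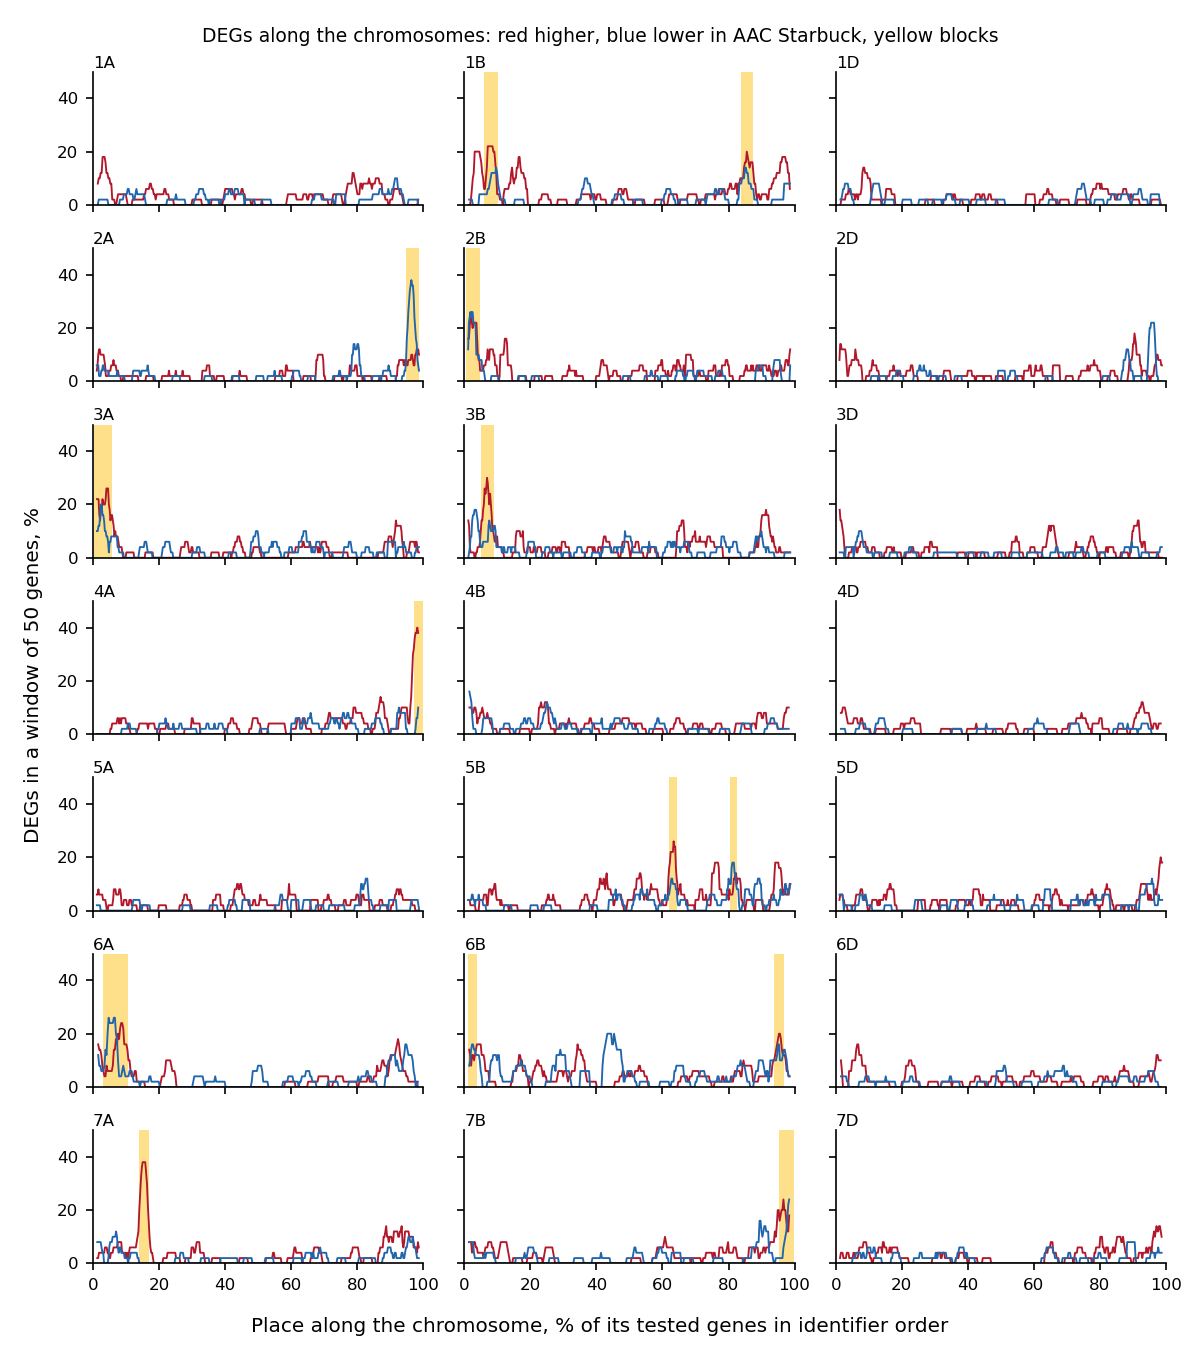
Share of DEGs in windows of 50 genes tested, in percent, along each chromosome in identifier order, for genes higher (red) and lower (blue) in AAC Starbuck. Yellow marks the 14 blocks. The 7A and 4A blocks are peaks of genes higher in AAC Starbuck, the 2A block is a peak of genes lower, and no block lies on a D chromosome.

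The block on 7A ran from TraesCS7A02G103500 to TraesCS7A02G125600 and was the only block whose DEGs all had the same direction. Of 59 genes tested 21 were DEGs (35.6%), and all 21 were higher in AAC Starbuck. Of the 38 genes not called, 28 had a log2 fold change above 0, and the median over all 59 was 0.58. As the median difference from the mean of the 6 libraries over those 59 genes, the AAC Starbuck libraries were at 0.34, 0.41 and 0.34 and the AAC Magnet libraries at -0.27, -0.35 and -0.35 on the log2 scale. AAC Concord libraries, whose levels are not part of this contrast but whose spread enters the shared fit, were at 0.24, 0.17 and 0.28 and AAC Tradition libraries at 0.12, 0.18 and 0.21. All 3 libraries of each of these varieties were therefore between the AAC Magnet and the AAC Starbuck libraries. The 7A block was not found with a limit of 40%, with windows of 100 genes, or with a mean of at least 50. It was found without any 1 of the 6 libraries when the genes were kept, but with the filter applied again it was lost without AAC Starbuck replicate 1, 2 or 3.

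The block at the end of 4A, from TraesCS4A02G474900 to TraesCS4A02G499900, was the densest, with 27 DEGs among 55 genes tested (49.1%), 20 higher and 7 lower in AAC Starbuck. For 24 of the 27 the mean log2 levels of both AAC Concord and AAC Tradition were nearer to AAC Starbuck than to AAC Magnet, and for 0 were both nearer to AAC Magnet. Over the 20 higher DEGs, the libraries' median log2 differences from the mean of the 6 libraries were 1.08, 1.3 and 1.23 in AAC Concord and 1.17, 1.18 and 1.56 in AAC Tradition. The same median was 1.44, 1.49 and 1.37 in AAC Starbuck and -1.36, -1.31 and -1.36 in AAC Magnet, the contrast that chose these genes. By this median the AAC Magnet libraries stood apart from all 9 libraries of the other varieties. Over all 55 genes tested they did not. There the median was 0.228, 0.353 and -0.145 in AAC Starbuck and 0.075, -0.406 and -0.196 in AAC Magnet, with overlap. The block on 7B, from TraesCS7B02G458700 to TraesCS7B02G500900, had the same form, with both other varieties nearer to AAC Starbuck in 24 of its 31 DEGs.

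On 2A the block from TraesCS2A02G552800 to TraesCS2A02G583500 showed the reverse. Of its 29 DEGs among 90 genes tested 21 were lower in AAC Starbuck, and in 27 both other varieties were nearer to AAC Magnet. Over the 21 lower DEGs the median log2 differences were -1.16, -1.55 and -1.36 in AAC Starbuck, and 1.1, 1.17 and 1.15 in AAC Magnet. AAC Concord libraries were at 2.04, 1.78 and 1.61 and AAC Tradition libraries at 1.20, 1.15 and 1.3, so AAC Starbuck was the variety apart in these DEGs. Over all 90 genes tested the median was -0.082, 0.046 and -0.055 in AAC Starbuck and 0.007, 0.012 and 0.129 in AAC Magnet, with overlap. Other blocks divided the varieties in pairs. In the 3A block (TraesCS3A02G003800 to TraesCS3A02G042600, 37 DEGs of 112) AAC Tradition was nearer to AAC Starbuck and AAC Concord to AAC Magnet in 21 DEGs, and in the first 5B block (TraesCS5B02G336100 to TraesCS5B02G359500, 19 DEGs of 55) in 15. In the second block of 1B (TraesCS1B02G386400 to TraesCS1B02G414700) the pairing was the other way in 10 of 19 DEGs, with AAC Concord nearer to AAC Starbuck.

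**Figure D4:**
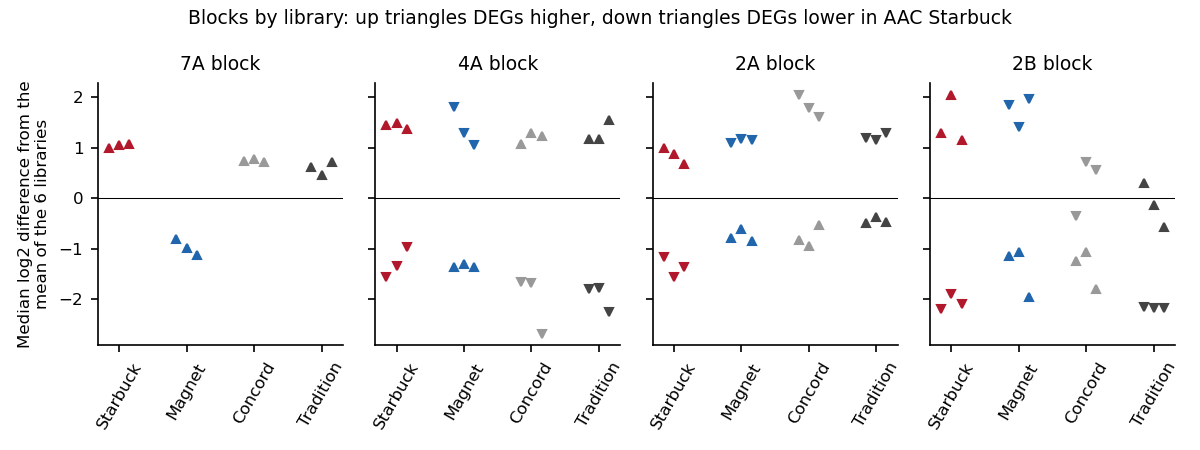
Median log2 difference of each library from the mean of the 6 AAC Starbuck and AAC Magnet libraries over the DEGs of 4 blocks, for DEGs higher (up triangles) and lower (down triangles) in AAC Starbuck, 3 libraries per variety. AAC Concord and AAC Tradition sit with AAC Starbuck in the 4A block and with AAC Magnet in the 2A block. In the 7A block they lie between AAC Magnet and AAC Starbuck, nearer to AAC Starbuck. In the 2B block the lower DEGs of AAC Tradition sit with AAC Starbuck.

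Over all DEGs, no pattern of the other varieties was the rule. Both were nearer to AAC Starbuck in 814 DEGs (32.5%) and both nearer to AAC Magnet in 688 (27.5%), beside 32.4% and 31.7% of all genes tested. AAC Tradition alone was nearer to AAC Starbuck in 612 (24.5%, beside 18.0% of all genes tested) and AAC Concord alone in 389 (15.5%, beside 17.9%). Among DEGs higher in AAC Starbuck the share with AAC Tradition alone was 28.9%, and among those lower 17.8%.

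Genes that were silent in 1 variety and expressed in the other were more often on B. On-off genes were at 0 in all 3 libraries of 1 variety and at least 10 in all 3 of the other. They numbered 109 with expression in AAC Starbuck (0.265% of genes tested) and 84 with expression in AAC Magnet (0.205%). Of the 109, 71 lay on B (65.1%), 21 on A and 16 on D, and of the 84, 35 lay on B (41.7%), 29 on A and 13 on D, beside 32.6% of the genes tested on B. Chromosome 3B held the most of those expressed in AAC Starbuck (16) and 6B the most of those expressed in AAC Magnet (11). In AAC Starbuck the on-off genes had a median of 33.1 normalized counts and in AAC Magnet of 30.6. At least 10 counts in all libraries of both other varieties were found for 20 of the 109 and 25 of the 84, and 0 in all of them for 11 and 17. Whether reads of such a gene fail to match the reference was not tested.

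The 2 largest positive differences among DEGs with a mean of at least 50 were in genes with no name in the sources used here. TraesCS5B02G417700 had 527, 459 and 378 normalized counts in AAC Starbuck and 0 in all AAC Magnet libraries, at least 145-fold higher against 3 reads per library (limma adjusted p = 7.07e-11). It was at 539, 556 and 789 in AAC Tradition and at 0 in all AAC Concord libraries. The on-off gene TraesCS5B02G417500, named because it lies close to it and after its values were seen, had the same pattern, with 242, 157 and 185 in AAC Starbuck, 222, 218 and 269 in AAC Tradition and 0 elsewhere. TraesCS3B02G381800 had 221, 289 and 317 in AAC Starbuck and 0 in the 9 libraries of the other varieties, at least 88.0-fold higher than in AAC Magnet (limma adjusted p = 4.91e-11). Libraries at 0 add no spread to the fit shared by all 12 libraries, so such p-values can come out too small. Over all alternatives the limma adjusted p was 1.11e-12 to 1.15e-06 in this gene and 2.43e-12 to 9.95e-07 in TraesCS5B02G417700.

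The largest negative differences were in an unplaced gene and on 6B. TraesCSU02G060600 had 1822, 1665 and 1545 in AAC Magnet and 1412, 1390 and 1300 in AAC Tradition, and 0 in all AAC Starbuck and AAC Concord libraries, so it was at least 631-fold lower in AAC Starbuck than in AAC Magnet (limma adjusted p = 1.73e-12). TraesCS6B02G452100 had 548, 385 and 501 in AAC Magnet, 314 to 428 in AAC Concord and 398 to 479 in AAC Tradition, and 0 in AAC Starbuck, at least 180-fold lower (limma adjusted p = 6.79e-11). In each of these 4 genes all libraries of a variety were either at 0 or above 200 normalized counts. The limit from libraries at 0 holds for the negative differences too. Over all alternatives their limma adjusted p was 1.78e-14 to 6.8e-07 in TraesCSU02G060600 and 5.92e-13 to 9.95e-07 in TraesCS6B02G452100.

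The older pair of varieties was compared in the same fit and with the same DEG rule. Genes were filtered on the AAC Starbuck and AAC Magnet libraries, so a gene expressed only in AAC Concord or AAC Tradition did not enter. The shares of the pairs are therefore not fully alike. AAC Concord against AAC Tradition gave 2556 DEGs (6.22%) in the same genes, 919 higher and 1637 lower in AAC Concord. These comparisons share no library, but both use the spread of each gene over all 12 libraries. A gene with little spread is easier to call in both, so the overlap is not independent. The comparisons had 636 DEGs in common, 25.4% of those between AAC Starbuck and AAC Magnet and 24.9% of those between AAC Concord and AAC Tradition. The Western variety was on the same side in 234 of them (130 higher, 104 lower) and on opposite sides in 402, where 281 were higher in AAC Starbuck and in AAC Tradition and 121 were lower in those varieties. The difference between the contrasts (interaction in the same limma fit) passed an adjusted p of 0.05 in 3999 genes (9.74%), among them 1580 of the 2503 DEGs. The DEGs were chosen for a difference that is part of this interaction. Their larger share therefore follows in part from the choice and is not evidence that the pairs differ.

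Of the 39 wax genes listed, 27 were detected in the 6 libraries and 11 passed the filter, of which 2 were DEGs, both higher in AAC Starbuck and both encoding a DKP, the polyketide synthase of the W1 locus. Over all genes tested 6.09% were DEGs and 3.65% were higher in AAC Starbuck. Both DKP genes lie in the 2B block, which runs from TraesCS2B02G006700 to TraesCS2B02G049700. There 36 of 98 genes tested were DEGs (36.7%), 19 higher and 17 lower, so these calls are not particular to wax genes. The list is the study's own and its values in these samples were known when it was taken up, so its directions are not independent evidence. The median log2 fold change over the 11 was 0.73, against 0.00 over all genes tested. Near-identical copies and homoeologues share reads, and how Salmon divided them could change the values of single genes. In AAC Magnet, replicate 3 was lowest, or tied at 0, in all 11 genes, as in TaCER1-1 on 1A (379, 332 and 200). In AAC Tradition replicate 3 was lowest in all of them except TaCER1-6 on 6B (12.1, 16.5 and 18.3). AAC Starbuck replicate 3 was lowest in only some. The wax genes thus do not vary independently between libraries, and a cause was not tested.

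TraesCS2B02G006800 (DKP, W1 cluster on 2B) had 335, 284 and 208 normalized counts in AAC Starbuck and 0, 10.7 and 0 in AAC Magnet. Its log2 fold change was 6.90 (SE 1.22, limma adjusted p = 0.00495), and it passed under every alternative run. TraesCS2B02G006700 (DKP) had 291, 237 and 253 in AAC Starbuck and 2.1, 15.5 and 0 in AAC Magnet, a log2 fold change of 6.13 (SE 1.32, limma adjusted p = 0.0153). Replicate 2 of AAC Magnet had the highest count of that variety in both genes, and the varieties did not overlap. The call of TraesCS2B02G006700 was lost without AAC Magnet replicate 1 (limma adjusted p = 0.0538) or replicate 3 (0.0613), with 0.00191 to 0.0652 over all alternatives. In AAC Tradition both genes were at 176 to 207 in replicates 1 and 2 and at 4.42 and 11.1 in replicate 3, which widens the spread in the fit shared by all libraries.

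The other DKP genes that entered the test had a higher mean in AAC Starbuck but did not pass. TraesCS2D02G015700 had 40.4, 33.2 and 35.1 in AAC Starbuck and 2.1, 3.58 and 0.89 in AAC Magnet, without overlap (log2 fold change 3.63, SE 1.07, limma adjusted p = 0.0633). It passed in 5 of 23 alternatives, which were the fits without AAC Tradition replicate 3 (0.00414), in the 6 libraries alone (7.68e-04), with a pseudocount of 10 (0.00338), with limma's trend (0.0361) and with the replicate block (0.0236), with 7.68e-04 to 0.176 over all alternatives. TraesCS2D02G016100 had 178, 192 and 176 against 116, 132 and 32.9, a log2 fold change of 1.18 (SE 0.84, limma adjusted p = 0.472). TraesCS2B02G006300 had 13.2, 8.30 and 21.6 against 1.05, 10.7 and 0, and its libraries overlapped (log2 fold change 2.32, SE 1.27, limma adjusted p = 0.330).

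The remaining W1 genes were expressed at low counts. Of the 21 listed in the clusters on 2B and 2D, 15 were detected, all 15 in AAC Starbuck and 7 in AAC Magnet. All 15 had the higher mean in AAC Starbuck, which for genes not detected in AAC Magnet follows from detection alone. Some rest on few reads, as TraesCS2B02G006900 with 1 and TraesCS2B02G006200 with 2 in AAC Starbuck. The 3 DMH genes on 2B, hydrolases of β-diketone synthesis, summed to 22.3, 13.5 and 30.3 in AAC Starbuck and 0 in every AAC Magnet library. The 5 P450 genes on 2B, which encode cytochrome P450 oxidases, summed to 18.2, 2.08 and 8.60 and to 0 in AAC Magnet. On 2D the 2 P450 genes summed to 2.48, 1.04 and 0.80 in AAC Starbuck and 0, 1.19 and 0 in AAC Magnet, and the DMH gene was at 0 in all 6. With no filter on low values the P450 gene TraesCS2B02G005800 also passed (log2 fold change 2.22, limma adjusted p = 0.043), from 11.5, 2.08 and 1.60 against 0 in AAC Magnet.

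Expressed FAR genes, which reduce very-long-chain acyl chains to primary alcohols, had the higher mean in AAC Magnet in 6 of 6 detected genes, and 0 of the 3 that passed the filter were DEGs, beside 6.09% of all genes tested. The 6 include TaFAR5 on 4D (TraesCS4D02G008300), with 0 and 3 reads in all, and TaFAR2 on 4A (TraesCS4A02G388600), with 4 and 8. TaFAR4 on 4B (TraesCS4B02G363100) had 28.8, 32.2 and 25.6 in AAC Starbuck and 70.2, 64.5 and 48.0 in AAC Magnet. The varieties did not overlap (log2 fold change -1.04, SE 0.31, limma adjusted p = 0.0684). It passed in 5 of 26 alternatives, which were the 6 libraries alone (0.0253), limma's trend (0.045), the replicate block (0.0338) and the fits without AAC Tradition replicate 1 (0.0414) or 3 (0.00708), with 0.00708 to 0.203 over all alternatives. TaFAR4 on 4D (TraesCS4D02G356300) had 74.1, 49.8 and 61.5 against 78.6, 96.7 and 76.5, a log2 fold change of -0.45 (SE 0.23, limma adjusted p = 0.3). TaFAR4 on 5A (TraesCS5A02G531300) overlapped between the varieties and had a log2 fold change of -0.11 (SE 0.31, limma adjusted p = 0.893). TaFAR5 on 4B (TraesCS4B02G006800) was under the filter, with 0 in AAC Starbuck and 7.33, 7.16 and 5.33 in AAC Magnet, at least 2.48-fold lower in AAC Starbuck (exact permutation test, two-sided p = 0.1, the smallest that 3 against 3 allows). With no filter it passed (log2 fold change -2.92, limma adjusted p = 0.0043).

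In the TaCER1 genes, alkane-forming enzymes, 0 of the 3 that passed the filter were DEGs, beside 6.09% of all genes tested. So few genes give no measure of how often these families differ. TaCER1-1 on 1B (TraesCS1B02G168500) had 756, 660 and 641 in AAC Starbuck and 543, 388 and 332 in AAC Magnet, without overlap (log2 fold change 0.73, SE 0.37, limma adjusted p = 0.287). TaCER1-1 on 1A (TraesCS1A02G150900) had 303, 277 and 280 against 379, 332 and 200, and the varieties overlapped (log2 fold change -0.03, SE 0.31, limma adjusted p = 0.970). TaCER1-6 on 6B (TraesCS6B02G255100) had 18.5, 52.6 and 49.8 against 51.1, 57.1 and 41.6, also with overlap. TaCER1-6 on 6A (TraesCS6A02G226500) was under the filter, at 0.83, 1.04 and 0 in AAC Starbuck and 2.11, 2.40 and 3.58 in AAC Magnet, from 2 and 8 reads in all.

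**Figure D5:**
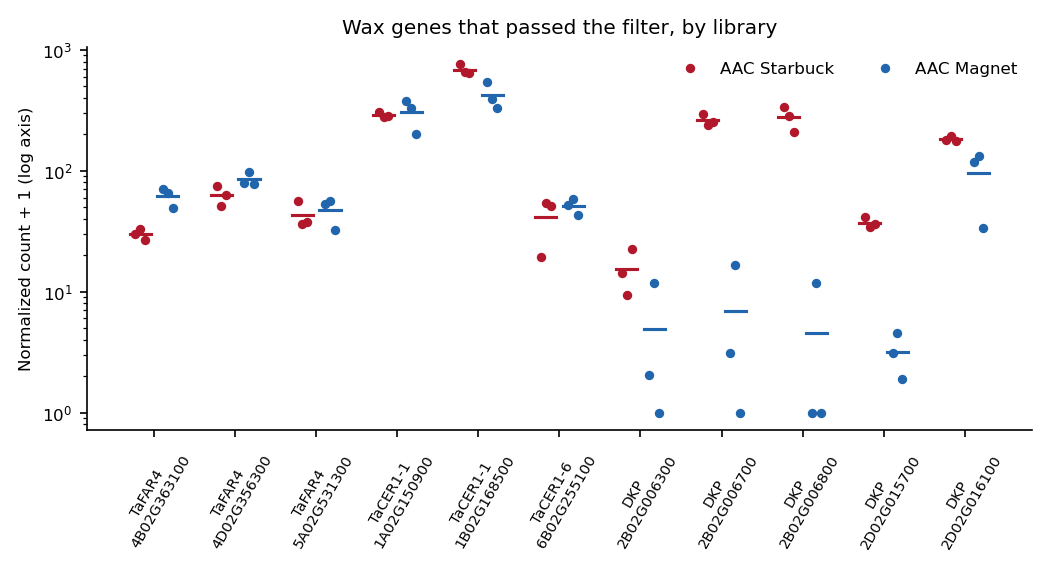
Normalized count + 1 on a log axis for the 11 wax genes that passed the filter, 3 points for the libraries and a bar for their mean in AAC Starbuck (red) and AAC Magnet (blue). The DKP genes TraesCS2B02G006700 and TraesCS2B02G006800 lie at 208 to 335 in AAC Starbuck and at 0 to 15.5 in AAC Magnet, while TaFAR4 and TaCER1 genes differ less.

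The share of counts by subgenome differed most in the DKP genes, which compares the clusters on 2B and 2D and not paired homoeologues. In AAC Starbuck the DEGs TraesCS2B02G006700 and TraesCS2B02G006800 had means of 260 and 276, out of 552 over the 2B genes. This share therefore largely restates those calls. The 2B genes made up 74.6%, 70.2% and 69.7% of the DKP counts of 2B and 2D in AAC Starbuck and 2.59%, 21.9% and 0% in AAC Magnet (71.5% ± 2.7 against 8.17% ± 12, SD, n = 3, exact permutation test, two-sided p = 0.1). Of TaCER1-1 counts, 1B contributed 71.3%, 70.4% and 69.4% in AAC Starbuck and 58.7%, 53.7% and 62.3% in AAC Magnet, with 1A the reverse and 1D at most 0.34% in all 6 libraries. Of TaFAR4 counts, 4B contributed 22.1% ± 4.8 in AAC Starbuck and 31.9% ± 2.7 in AAC Magnet, and 5A 31.6% ± 2.9 and 23.8% ± 3.3 (SD, n = 3, exact permutation test, two-sided p = 0.1 for each). These shares did not overlap between the varieties, and an exact p of 0.1 is the smallest that 3 against 3 libraries can give. The 4D share of TaFAR4 and all shares of TaCER1-6 overlapped or came from few reads. Counts are not corrected for gene length, so a share compares varieties and not the homoeologues with each other.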

How the data were processed

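Flag leaf RNA of 4 wheat varieties (3 libraries each, Control) was measured by the authors with paired-end Illumina sequencing, Trimmomatic and Salmon against IWGSC RefSeq v2.1. Identifiers are those of v1.1. The signal values are normalized counts deposited by the authors. Their normalization is not given in the sources used here, and DESeq2, named by the authors for their tests, may have made it. Of low values 85.7% to 91.3% were whole multiples of 1 read per library, with a tolerance of 0.05, so whole reads were not claimed and no count model was run.

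The 6 libraries of AAC Starbuck and AAC Magnet set the filter. Limma 3.58.1 (R 4.3.3, no trend) was fitted to log2(value + 1) of 12 libraries, variety being the sole factor. Low genes are understated on this scale. Figures and exact tests used Python 3.11.15. The pipeline was tested on simulated data. Named genes are the 39 wax genes and, outside them, the 2 largest positive and negative log2 fold changes among DEGs whose mean reached 50 and whose varieties did not overlap. None of the identifiers (0) matched the RefSeq gene table of 155467 genes, so no sequences are shown.

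Members and lists were chosen with earlier results of these data known. Steps of 10% along the chromosomes, level classes, nearness of the other varieties, block medians and W1 sums were added as descriptions and carry no test. When libraries were left out in turn, the filter was first applied again to those that remained. This removed genes silent in 1 variety, and after seeing those results the genes were kept fixed instead. Both versions are reported.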

Additional observations from a re-analysis of the deposited data

Results flagged for a closer look

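For 7 named genes the difference between AAC Starbuck and AAC Magnet itself differed from that between AAC Concord and AAC Tradition. The interaction contrast in limma had an adjusted p under 0.05, also met by 9.74% of all genes tested and 63.1% of DEGs. Genes outside the wax list were named for their difference between AAC Starbuck and AAC Magnet, and both DKP genes below are DEGs. That difference is part of the interaction, so the passing of these genes is not independent evidence. In TraesCS5B02G417700 the contrasts differed by 18.09 on the log2 scale (limma adjusted p = 4.68e-12), since expression was found in AAC Starbuck and AAC Tradition. In TraesCS3B02G381800, expressed in AAC Starbuck alone, they differed by 8.10 (5.29e-10 in limma), and in TraesCS6B02G452100, at 0 in AAC Starbuck alone, by -8.68 (1e-09 in limma). These 3 values come from genes at 0 and depend on the pseudocount, and libraries at 0 add no spread to their p-values.

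In the DKP genes TraesCS2B02G006700 and TraesCS2B02G006800 the contrasts differed by 7.49 (SE 1.87, limma adjusted p = 0.0279) and 8.88 (SE 1.72, limma adjusted p = 0.00698). Replicate 3 of AAC Tradition, at 4.42 and 11.1 normalized counts, lay far under replicates 1 and 2 in both. It was also the lowest library of its variety in the other wax genes that passed the filter, except TaCER1-6 on 6B. For TaFAR4 on 4B the AAC Tradition libraries were at 57.0, 43.7 and 19.9.

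In TaFAR4 on 4B (TraesCS4B02G363100) the difference of the contrasts was -1.87 (SE 0.44, limma adjusted p = 0.0216), with log2 fold changes of -1.04 for AAC Starbuck against AAC Magnet and 0.83 for AAC Concord against AAC Tradition. In TaFAR4 on 4D (TraesCS4D02G356300) it was -1.24 (SE 0.33, limma adjusted p = 0.0353), from -0.45 and 0.79. Neither single contrast passed in these TaFAR4 genes.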

How the results depend on the processing

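With a mean of at least 50, which tests fewer genes, 922 DEGs remained in count (502 higher, 420 lower; 291 on A, 365 on B, 250 on D), AAC Concord against AAC Tradition gave 1081, the pairs shared 94 DEGs in the same and 155 in the opposite direction, and 4 blocks were found, 3 of them overlapping the 14. Without a limit on the fold change 1532 genes were lower and 360 were shared in the same direction. Blocks numbered 33 and 5 with windows of 25 and 100 genes and 39 and 5 at 20% and 40%. On-off genes numbered 63 (expressed in AAC Starbuck) and 46 (in AAC Magnet) at a minimum of 20, and 211 and 140 when up to 3 reads counted as silent.

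Of the wax genes, 1 was called lower in AAC Starbuck with no filter (TaFAR5, TraesCS4B02G006800), with limma's trend, with the replicate block and in the 6 libraries alone (TaFAR4, TraesCS4B02G363100 in these 3). The replicate block gave 1559 DEGs higher and 979 lower. Deviations of same-numbered AAC Starbuck and AAC Magnet libraries correlated at 0.142, 0.122 and 0.028, and those of differently numbered libraries at -0.253 to 0.139. With so few libraries these values cannot decide whether the numbers pair them.

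Leaving out 1 library gave the following ranges over both treatments of the filter, the version with the filter applied again having been run first and replaced after its values were seen. DEGs numbered 1384 to 2558 (1920 to 2558 with the genes kept), with 601 to 1540 higher and 393 to 1020 lower, and 428 to 804 on A, 598 to 1028 on B and 335 to 677 on D. The pairs shared 127 to 237 in the same and 222 to 380 in the opposite direction. Blocks numbered 4 to 12 (11 to 12 with the genes kept). Wax genes called higher numbered 1 to 3 and lower 0 to 1. With the filter applied again, TraesCS2B02G006700 lost its call in 5 of the 6 fits. Log2 fold changes near 0 changed sign in TraesCS5A02G531300 (-0.36 to 0.038), TraesCS1A02G150900 (-0.31 to 0.15) and TraesCS6B02G255100 (-0.68 to 0.048). The causes were not tested.

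The alternatives other than leaving out libraries turned no direction of a named gene, and of 358 values of counts and shares under alternatives 288 stayed within 1.5 times the reported count or the spread between replicates. The depth limits genes of low level most, and 3 reads are worth 2.39 to 3.58 normalized counts in these 6 libraries.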
